A study of Mus musculus with 10 samples.

Results

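In 714 of 412413 windows of lung DNA, every OVA-induced mouse that received no herbal treatment had more CpG methylation than every saline-treated and every herb-treated mouse. The windows were selected on these values: each was 1000 bp long, lay on chromosomes 1 to 19 and had at least 20 CpG calls in all 10 mice, the lowest OVA mouse stood above the highest of the other 7 mice, and the OVA mean was at least 10 percentage points above both the Saline and the Herb mean. Windows started every 500 bp, so neighbours overlapped. Merged where they overlapped or touched, the 714 windows formed 566 regions, of which 420 held 1 window, 144 held 2 and 2 held 3.

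The data were bisulfite sequencing of whole-lung DNA after capture of selected genomic regions (Methyl-seq) from female BALB/c mice aged 8 weeks at purchase. Mice of the OVA group (n = 3) were sensitized by injection of 50 µg ovalbumin with alum on days 0 and 7, challenged through the nose with 25 µg on 4 days from day 12, and given vehicle by mouth. Mice of the Herb group (n = 4) had the same ovalbumin exposure and 200 mg/kg of DSE, an ethanol extract of Descurainia sophia seeds, by mouth on days 9 to 15. The sample labels say Herb and not DSE, and DSE is the herbal extract that the series title names. Mice of the Saline group (n = 3) received injections of saline alone, and neither alum nor oral vehicle is described for them. The ovalbumin model produces an acute allergic inflammation of the airways, without the long course of human asthma, and the herb was present only together with ovalbumin, so that no herb effect in unexposed lung could be seen. The mice of a group are separate samples in the labels.

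In mammalian DNA, methyl groups are carried mainly by cytosines that precede a guanine (CpG). Promoters rich in CpG are mostly unmethylated, most CpG elsewhere are methylated, and distal regulatory elements such as enhancers are often partly methylated in a tissue because its cell types differ there. Since the lung was taken whole, a methylation change within cells and a change in the mix of cells cannot be told apart. The start sites of some genes of lung cells were little methylated, as in Nkx2-1, the transcription factor of lung epithelium (2.38% in Saline, 2.84% in OVA and 2.90% in Herb), and Kdr, a receptor of endothelial cells (1.80%, 1.93% and 2.03%). Sftpc, the surfactant gene of a single type of alveolar cell, was methylated at 67.6%, 66.3% and 65.2%, and windows over the start site of the liver gene Alb at 71.7%, 70.8% and 68.0%.

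A few stretches of 300 bases show the sequence inside some of these windows, with each CpG in capitals. The first 3 lie in windows among the 10 regions with the widest gap between OVA and the other mice. The next lies in a window that overlaps coding exon 12 of Hdac1. Its label names that exon, but the stretch also holds bases of the neighbouring intron. The last is the promoter of Olfr60, from 250 bases before to 50 after its start. All but the last are given on the + strand as the 300 bases of their window that hold most CpG.
Spaca1 upstream region, chr4:34114546-34114845 (GRCm38, +): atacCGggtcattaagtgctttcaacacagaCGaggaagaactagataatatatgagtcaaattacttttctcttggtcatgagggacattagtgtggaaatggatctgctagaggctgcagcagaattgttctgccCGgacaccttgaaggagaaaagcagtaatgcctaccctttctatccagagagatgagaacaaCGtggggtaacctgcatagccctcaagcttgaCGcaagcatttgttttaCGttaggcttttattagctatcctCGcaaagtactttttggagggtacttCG
Nxn intron 1, chr11:76363692-76363991 (GRCm38, +): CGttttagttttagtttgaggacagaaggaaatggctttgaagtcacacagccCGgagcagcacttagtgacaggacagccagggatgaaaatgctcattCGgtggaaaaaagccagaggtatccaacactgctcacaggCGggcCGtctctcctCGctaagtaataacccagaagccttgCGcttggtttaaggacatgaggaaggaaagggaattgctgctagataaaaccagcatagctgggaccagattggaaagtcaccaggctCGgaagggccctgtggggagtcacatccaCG
Zswim9 intron 2, chr7:13271657-13271956 (GRCm38, +): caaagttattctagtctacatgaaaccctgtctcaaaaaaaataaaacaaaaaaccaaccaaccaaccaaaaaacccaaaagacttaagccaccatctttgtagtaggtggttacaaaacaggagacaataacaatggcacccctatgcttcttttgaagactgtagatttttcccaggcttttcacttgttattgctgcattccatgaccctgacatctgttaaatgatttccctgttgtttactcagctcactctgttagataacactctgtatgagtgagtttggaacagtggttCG
Hdac1 exon 12, chr4:129517192-129517491 (GRCm38, +): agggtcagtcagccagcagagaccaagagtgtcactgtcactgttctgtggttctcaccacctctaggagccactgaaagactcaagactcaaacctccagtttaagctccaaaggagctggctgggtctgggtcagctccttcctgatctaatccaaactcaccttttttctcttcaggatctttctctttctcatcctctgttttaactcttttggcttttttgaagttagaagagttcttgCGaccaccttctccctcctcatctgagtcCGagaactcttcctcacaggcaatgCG
Olfr60 promoter, chr7:140345938-140346237 (GRCm38.p6, -; from RefSeq): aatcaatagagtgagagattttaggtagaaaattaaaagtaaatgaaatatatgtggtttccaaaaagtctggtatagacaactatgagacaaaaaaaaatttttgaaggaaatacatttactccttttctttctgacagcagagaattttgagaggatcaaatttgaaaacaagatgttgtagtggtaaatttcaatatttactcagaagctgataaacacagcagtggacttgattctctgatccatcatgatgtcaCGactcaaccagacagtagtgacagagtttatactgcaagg
The Spaca1 stretch held 8 CpG and the Nxn stretch 9, the Hdac1 stretch 3 and the Olfr60 promoter 1, and the whole Zswim9 window held 2.

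Over the 714 windows, mean methylation was 66.8%, 66.7% and 68.2% in the 3 OVA mice. It was 51.6%, 50.1% and 51.1% in the 3 Saline mice and 50.8%, 53.4%, 51.5% and 53.2% in the 4 Herb mice. The group means were 67.2% ± 0.844 (SD, n = 3) in OVA, 51.0% ± 0.757 (SD, n = 3) in Saline and 52.2% ± 1.28 (SD, n = 4) in Herb. This separation is what the windows were chosen by and carries no test. Over all 412413 windows the same mice averaged 52.4% ± 0.479 in OVA, 51.1% ± 0.282 in Saline and 52.3% ± 0.489 in Herb.

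**Figure D1:**
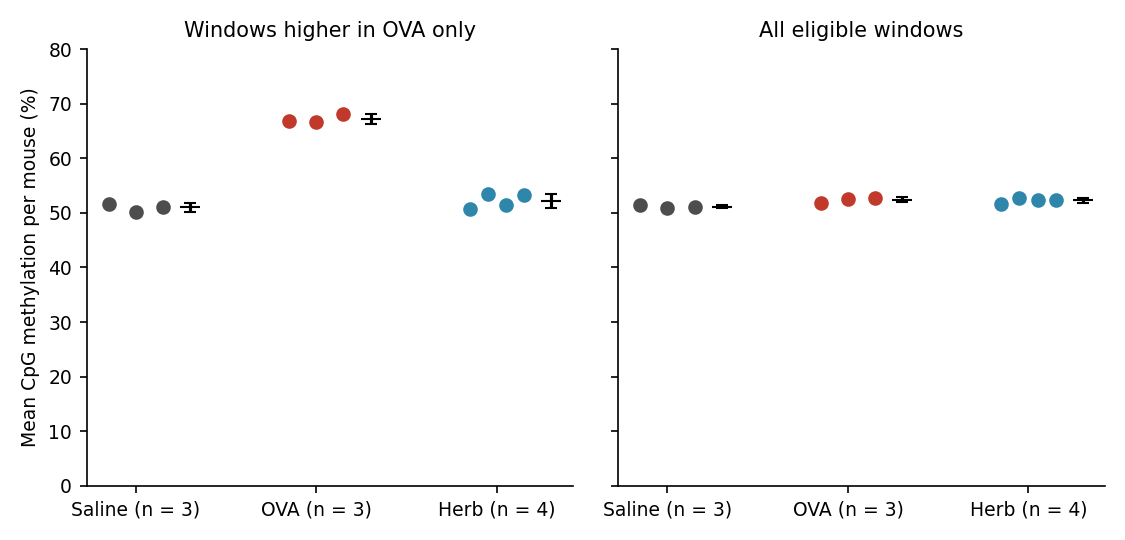
Mean CpG methylation (%) of each mouse over the 714 windows (left) and over all 412413 eligible windows (right), by group, with 1 point per mouse and the group mean ± SD in black. The OVA mice sit at 66.7 to 68.2% on the left, above the other 7 mice at 50.1 to 53.4%, by the choice of windows; on the right all 10 mice lie within 50.9 to 52.8%.

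In single windows the margin was narrower. The gap between the lowest OVA mouse and the highest other mouse had a median of 3.15 points, was under 1 point in 125 windows, at least 5 points in 188 and at least 10 points in 27. The OVA mean exceeded the Saline mean by a median of 14.9 points and the Herb mean by a median of 13.7 points, and it was at least 20 points above Saline in 163 windows and at least 20 points above Herb in 94. The highest of the other 7 mice was a Herb mouse in 447 windows and a Saline mouse in 267. Just inside the limit of 10 points, the smaller difference of group means was 10.0 to 10.04 points in 5 windows near Crtac1, Cdh1, Arhgap21 and Rpn2, and just outside it was 9.996 to 9.999 points in 5 windows near Mir8100, Slc66a2, Strn and Scgb1a1. Without the limit, 7647 windows, or 1.85% of all, had the 3 OVA mice above the other 7. With it the share was 0.173%.

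Depth moved with the pattern. The median window had 96.5 calls per mouse among the 714 and 447 among all windows, and 505 of the 714 (70.7%) lay in the shallowest of 5 equal depth classes of all windows, at 144 calls or fewer. The next class held 145, the middle class 54, and the 2 deepest classes 8 and 2. Among windows with a Saline mean of 20 to 80%, the share with the pattern still went from 0.981% in the shallowest class to 0.00711% in the deepest. The OVA libraries were also relatively shallow at these places: with each library scaled to its own median, depth in OVA was 0.868 of that in Saline and 0.775 of that in Herb in the median window of the 714, against 0.937 and 0.951 over all windows of the shallowest class and 1.02 and 1.09 over all windows. The opposite set, 448 windows that were lower in OVA only, had a median of 109 calls and ratios of 0.825 and 0.627. The 10678 windows higher in all ovalbumin-exposed mice, Herb included, had a median of 483 calls. The part of depth in the pattern was not tested.

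Counting error was large in most of the windows. In 6 of the 714 the 95% Wilson interval of the lowest OVA mouse lay wholly above that of the highest other mouse. Intervals cover counting error only and are too narrow where several calls come from 1 molecule.

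**Figure D2:**
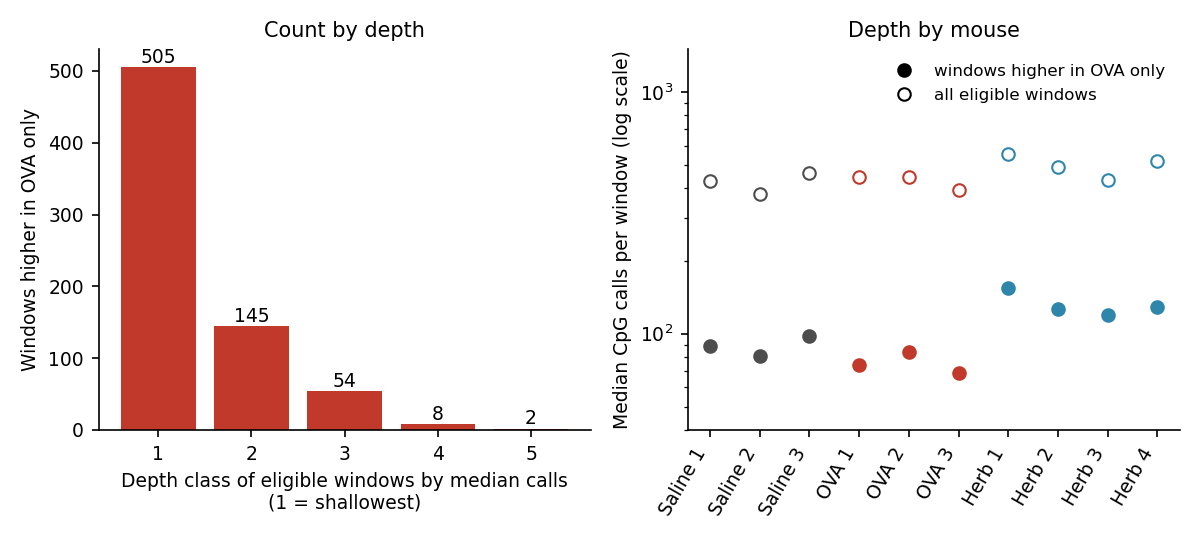
Number of the 714 windows in each of 5 equal classes of all eligible windows by median calls (left), and median CpG calls per window in each mouse on a log scale (right) for the 714 windows (filled) and all windows (open). The count drops from 505 in the shallowest class to 2 in the deepest, and the OVA mice have 69 to 84 calls in the median window of the 714 where the Herb mice have 119 to 154.

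The 6 windows with separate intervals include 3 within the genes Nxn, Sema5b and Pam. They were chosen by this interval after the values were seen. In intron 1 of Nxn (chr11:76363501-76364500), which encodes the thioredoxin-related protein nucleoredoxin, the OVA mice had 68.4%, 66.9% and 67.6%, the Saline mice 50.4%, 43.8% and 44.3%, and the Herb mice 49.2%, 53.1%, 49.3% and 55.3%, with 315 to 583 calls per mouse. The lower bound of the lowest OVA mouse was 62.3% and the upper bound of the highest other mouse 59.996%. In intron 1 of Sema5b (chr16:35571001-35572000), a semaphorin of axon guidance, the OVA mice had 42.1%, 40.4% and 42.4%, the Saline mice 26.2%, 25.6% and 29.5%, and the Herb mice 22.9%, 27.9%, 27.9% and 28.6%. Herb and Saline overlapped in both windows. In the other window of the Nxn region (chr11:76363001-76364000), the Herb mice had 48.7%, 53.7%, 47.6% and 49.9%, all above the Saline mice at 45.3%, 32.2% and 40.0%.

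Pam was the deepest of all 714 windows, with 1284 to 4236 calls per mouse. The window (chr1:97975501-97976500) covers coding exon 3 of the gene, whose enzyme amidates the ends of neuropeptides and peptide hormones. The OVA mice had 65.1%, 68.5% and 63.3%, the Saline mice 42.5%, 44.1% and 52.1%, and the Herb mice 51.0%, 58.8%, 54.5% and 57.0%. Herb and Saline mice overlapped, and the Herb mean lay between the other means, at 55.3% ± 3.4 (SD, n = 4) against 46.2% ± 5.1 (SD, n = 3) in Saline.

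The least methylated of the 6 lay 67790 bp from the start of Gpr6, an orphan G protein-coupled receptor (chr10:41003501-41004500), where the OVA mice had 23.6%, 21.4% and 20.3%, the Saline mice 8.0%, 10.8% and 7.3%, and the Herb mice 8.6%, 10.4%, 7.3% and 9.0%. The last 2 windows, 711 bp upstream of the uncharacterised transcript 1700022H01Rik and 75948 bp upstream of Gm17619, had OVA means of 46.1% and 65.3% against Saline means of 34.0% and 54.5% and Herb means of 32.0% and 53.4%.

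The leading windows of the 10 regions with the widest gaps lay 2324 to 133378 bp from the nearest start site or that of their gene. The widest gap, 17.3 points, was in a window 64434 bp upstream of Spaca1, a gene of the sperm acrosome membrane (chr4:34114501-34115500). Its OVA mice had 65.0%, 61.5% and 75.7%, its Saline mice 32.6%, 29.3% and 12.7%, and its Herb mice 35.6%, 44.3%, 35.6% and 42.6%, at 37 to 79 calls. The Herb mice were all above the Saline mice. In intron 2 of Zswim9 (chr7:13271501-13272500), the window with 2 CpG, the OVA mice spread from 60.4 to 86.7%, while the Saline mice had 36.1 to 44.7% and the Herb mice 20 to 36.7%.

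Near the start of Gimap8, which lies 7234 bp away and encodes a GTPase of the immunity-associated family expressed in lymphocytes, the OVA mice had 75.9%, 76.0% and 75.8%. The Saline mice had 41.8%, 55% and 57.8% there and the Herb mice 62.3%, 62.9%, 56.6% and 60.1%. In intron 8 of Pon1, the gene of the HDL-associated esterase paraoxonase, OVA averaged 47.6% ± 7.4 (SD, n = 3) against 23.1% ± 4.4 in Saline and 23.5% ± 3.4 in Herb (n = 4). The highest values were 31673 bp upstream of Soat1, whose enzyme esterifies cholesterol for storage. There the OVA mice had 97.6%, 96.3% and 95.8%, the Saline mice 83.7%, 70.8% and 69.6%, and the Herb mice 46.1%, 64.5%, 43.5% and 47.3%. Herb was thus below Saline at Soat1 with no overlap.

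Nxn was also among these regions. The other 4 were upstream of Prx, which encodes the myelin protein periaxin, and of Tab2, an adaptor of TAK1 kinase signalling, in intron 2 of Arfgap3, a GTPase-activating protein of the Golgi, and 31185 bp from the start of Gm8300. Their gaps were 11.5 to 13.9 points.

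**Figure D3:**
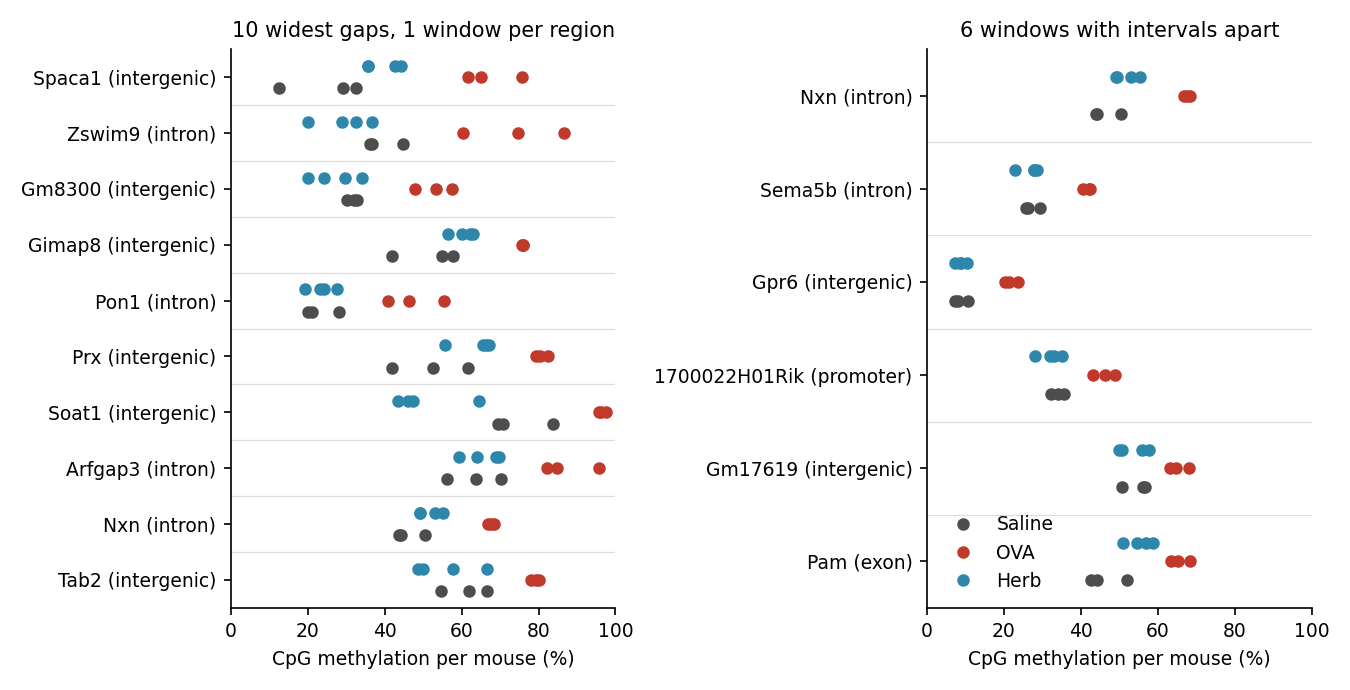
CpG methylation (%) of each mouse in the leading windows of the 10 regions with the widest gaps (left) and in the 6 windows with separate 95% intervals (right), coloured by group, 1 point per mouse. Every OVA point lies to the right of the other 7, by the choice of windows; the Herb points lie above the Saline points at Spaca1 and below them at Soat1, and both groups overlap in the windows shown for Nxn and Sema5b.

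Promoters were few among the windows. Within 1000 bp of a RefSeq start site lay 56 of 714 (7.84%), against 19.7% of all windows. Exons outside promoters held 53 (7.42% against 13.7%), introns 280 (39.2% against 30.1%) and intergenic DNA 325 (45.5% against 36.5%). Of the exon windows 45 touched coding sequence, and 109 of the intron windows were in the first intron. Windows over a start site numbered 8 (1.12%, against 8.49% of all). The median distance to a start site was 18624 bp against 12627 bp, and 215 windows (30.1% against 20.8%) were over 50 kb away. The windows lower in OVA only had 13.2% in promoters and 43.8% in intergenic DNA. Low promoter shares were also found in windows lower in Herb only (8.36%, with 39.7% in introns). Windows higher in all ovalbumin-exposed mice had 9.83% and 42.4%, and windows lower in all of them 10.6% and 41.2%. Those higher in Herb only differed, at 22.3% and 28.5%. These shares are given without a test, since overlapping windows are not independent and depth differed between the sets.

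**Figure D4:**
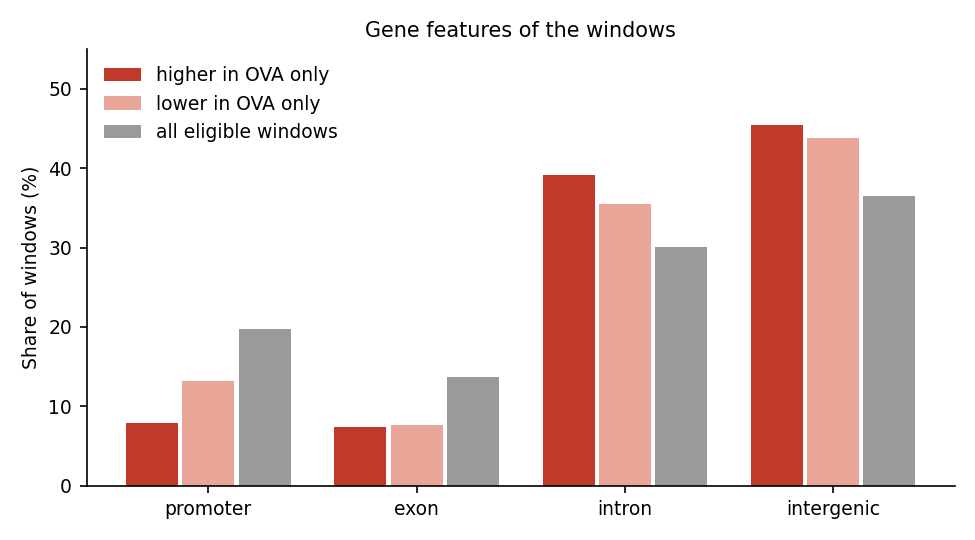
Share of windows (%) in promoters, exons, introns and intergenic DNA for the 714 windows higher in OVA only, the 448 windows lower in OVA only and all eligible windows. Promoters take 7.84% of the first set and 19.7% of all windows, and intergenic DNA 45.5% and 36.5%.

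The windows were partly methylated and poor in CpG. In Saline mice, 655 of 714 lay between 20 and 80%, 40 under 20% and 19 at 80% or more, whereas 22.6% of all windows lay under 20% and 22.4% at 80% or more. A window at the top of the scale can hardly rise 10 points, so this follows in part from the rule. The median window held 9 CpG against 13 in all, its GC content was 43.7% against 47.4%, its observed-to-expected CpG ratio 0.189 against 0.245 and its repeat-masked share 20.5% against 16.0%. Island composition (GC of 50% or more and a ratio of at least 0.6) was found in 0 of 714 and in 6.86% of all. Windows with 5 CpG or fewer made up 22.0% against 8.10%. The most alike sets shared these features: the windows lower in OVA only had medians of 9 CpG, 43.2% GC, a ratio of 0.199 and 20.6% masked, and the 682 windows lower in Herb only had 8 CpG, 42.3% GC, a ratio of 0.187 and 21.9% masked.

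Short sequence motifs were counted on both strands of each window. AGATAA, the GATA factor motif, was in 51.5% of the windows and in 41.1% of all, and TGTTTAC, of forkhead factors, in 17.6% and 13.1%. GGGCGG, bound by SP and KLF factors, was in 11.6% against 27.5%, CCGGAAG (ETS factors) in 3.36% against 7.49% and CACGTG (E-box) in 10.1% against 15%. TGANTCA (AP-1) was in 26.8% against 25.7%, TTCNNNGAA (STAT) in 27.3% against 26.8%, TGTGGT (RUNX) in 56.2% against 54.4%, CAAGTG (NKX2) in 49.9% against 47.8%, GGAATG (TEAD) in 41.5% against 42.7% and TGACGTCA (CRE) in 1.12% against 1.11%. The 3 motifs with the largest shortfall all hold a CpG and the 2 with the largest excess mostly A and T, and the GC content of the windows was lower as well. The CRE motif holds a CpG too and its 2 shares were alike, but only 8 of the 714 windows held it. The part of base composition in these shares was not tested.

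The 714 windows came from 555 genes by overlap or nearest start, and 11 of these genes had 2 regions or more. By chromosome the share of windows ran from 0.108% on chromosome 11 to 0.270% on chromosome 16, around 0.173% in all. Both regions of 3 windows were intergenic. One lay 205730 to 206730 bp upstream of Pfkp, a phosphofructokinase of glycolysis (chr13:6854501-6856500), where the middle window had 67.5%, 68.7% and 68.7% in OVA, 56.9%, 54.8% and 51.4% in Saline and 53.3%, 55.6%, 55.4% and 62.9% in Herb, at 428 to 798 calls. The other, 55091 to 56091 bp upstream of Comtd1 (chr14:21904001-21906000), had OVA mice at 20.7 to 36.4% and all others at 6.1 to 29.5%, taken over its 3 windows together. In 89 of the 144 regions of 2 windows, both windows held identical calls, so that they count as 1 measurement.

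Among promoter and exon windows, the widest gaps were at Mir6380, Olfr60, Mettl3, Mir6369, Hdac1, Atg7 and Mybpc1. Olfr60, an olfactory receptor gene, had its start site inside 2 overlapping windows with identical calls. The calls therefore came from the bases both windows share (chr7:140345501-140346000), and most of the promoter printed above lies outside these. Methylation was 74.2%, 69.8% and 70.97% in OVA, 58.3%, 48.6% and 56.4% in Saline and 59.6%, 57.1%, 53.1% and 50% in Herb. Each window had 28 to 63 calls per mouse. The window 127 bp upstream of a start site of Atg7 (chr6:114642001-114643000), the E1-like enzyme of autophagosome formation, had 49.5%, 48.9% and 54.7% in OVA, 30.1%, 33.3% and 34.1% in Saline and 31.5%, 39.7%, 25.9% and 36.8% in Herb.

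A window that overlaps coding exon 12 of Hdac1, a histone deacetylase (chr4:129516501-129517500), had 24 to 111 calls per mouse. Its OVA mice had 52.0%, 38.6% and 58.3%, its Saline mice 28.9%, 26.2% and 13.2% and its Herb mice 11.7%, 25.9%, 15.9% and 22.7%. Another overlaps coding exon 11 of Mettl3, the catalytic subunit that writes N6-methyladenosine on RNA. Its means were 68.1% ± 5.7 in OVA (SD, n = 3), 50.1% ± 3.0 in Saline (n = 3) and 48.8% ± 4.2 in Herb (n = 4). In a window that overlaps coding exon 21 of Mybpc1, a myosin-binding protein of muscle, the OVA mice had 77.4 to 85.2% and the others 56.6 to 68.7%. The windows near both microRNA genes had gaps of 10.4 and 9.94 points.

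The best covered promoter windows, chosen for their depth after the values were seen, had moderate gaps. At 814 bp upstream of Ino80, the ATPase of a chromatin remodelling complex, the OVA mice had 60.1%, 57.0% and 61.9%, the Saline mice 45.9%, 50.7% and 49.8% and the Herb mice 41.1%, 45.9%, 53.4% and 49.1%, at 712 to 1189 calls. At 182 bp upstream of Nsfl1c, a cofactor of the p97 ATPase, the OVA mice had 60.6%, 55.6% and 58.7%, the Saline mice 48.5%, 50.4% and 38.7% and the Herb mice 37.3%, 40.1%, 35.9% and 40.9%. Over the start site of Tmem204, a claudin-like membrane protein and also chosen after its values were seen, the OVA mice had 55.6%, 55.7% and 55.7%, the Saline mice 27.7%, 21.8% and 28.1% and the Herb mice 42.7%, 54.5%, 30% and 50.5%. The Herb mice at Tmem204 were all above the Saline mice.

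The 6 gene lists on the biology of allergic lung held 1 to 8 of the windows each. Their shares ran from 0.0502% to 0.528%, on both sides of the rule's share of 0.173% over all windows. Of 41 genes of cytokine and immune signalling, with 1392 windows, only Il2rb had a member window (0.0718%), 13435 bp upstream. Il2rb encodes the chain shared by the receptors of IL-2 and IL-15, and its OVA mice had 78.9%, 82.4% and 82.6%, its Saline mice 66.7%, 62.6% and 62.0% and its Herb mice 63.0%, 68.2%, 72.9% and 73.0%. Of 32 lung epithelial genes, Cav1 and Cdh1 had 3 windows among 811 (0.370%), in 2 regions. OVA means were 31.4% and 40.7%, Saline means 15.5% and 23.4% and Herb means 20% and 30.7%. The 2 Cav1 windows, 54861 and 55361 bp from the start, held identical calls. They had 20 to 52 calls per mouse in Saline, 21 to 34 in OVA and 122 to 212 in Herb. At Cdh1 the OVA mean was 10.01 points above the Herb mean, just past the limit. Cav1 encodes the main protein of caveolae and Cdh1 encodes E-cadherin.

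Of 28 endothelial and vessel genes, Efnb2, which encodes ephrin-B2 of arterial endothelium, had 1 window among 1103 (0.0907%). Of 30 smooth muscle, fibroblast and matrix genes, the matrix protein gene Tnc had 2 among 750 (0.267%), with identical calls. Of 34 developmental genes, the growth factor receptor gene Igf1r had 1 among 1992 (0.0502%). The means in OVA, Saline and Herb were 76.9%, 61.7% and 65.4% at Efnb2, 68.1%, 55.3% and 52.3% at Tnc and 87.9%, 72.5% and 74.3% at Igf1r. None of these windows was in a promoter.

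The largest share was in cyclic nucleotide and G protein signalling, where 6 of 27 genes had 8 windows among 1514 (0.528%) in 6 regions, without a test. They were Pde10a and Pde4d, phosphodiesterases that break down cyclic nucleotides, Adcy2, an adenylyl cyclase, Gnas, the stimulatory G protein alpha subunit, Prkcz, an atypical protein kinase C, and Prkg1, the kinase activated by cGMP. In the leading window of Pde10a, in intron 1, the OVA mice had 81.0%, 86.7% and 83.3%, the Saline mice 67.4%, 72.7% and 55.3% and the Herb mice 66.7%, 70.8%, 64.6% and 68.4%. At 7960 bp upstream of Adcy2 the OVA mice had 56.6%, 60.5% and 57.9%, the Saline mice 46.2%, 47.4% and 46.0% and the Herb mice 35.9%, 45.9%, 33.2% and 49.6%.

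Pde4d had OVA, Saline and Herb means of 87.7%, 67.04% and 72.7% in an intron window, and Prkcz means of 92.0%, 79.7% and 78.0% in intron 1. Prkg1 was the second deepest of the 714 windows, with 1277 to 2246 calls in intron 1. Its OVA mice had 70.6%, 61.7% and 64.0%, its Saline mice 58.5%, 57.9% and 48.2% and its Herb mice 49.1%, 51.2%, 48.7% and 51.7%. Il2rb, Adcy2, Prkcz and Prkg1 are among genes the study picked from these mice, and the lists were drawn up with that known, so their presence is no independent evidence.

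Herb against Saline asked how close the treated mice stood to unexposed mice at these places, a contrast the rule did not fix, although it kept both groups below OVA. The mean difference, Herb minus Saline, was 1.24 points over the 714 windows, with a median of 1.11 points (0.743 over all windows) and quartiles of -1.76 and 4.47. Herb was above Saline in 424 windows (59.4%, against 61.9% of all). The groups lay within 5 points of each other in 490 windows and at least 10 points apart in 68, counts without a share of all windows beside them. Herb and Saline mice overlapped in 655 windows. All Herb mice were above all Saline mice in 35 (4.90%, against 16.6% of all windows) and below in 24 (3.36% against 7.93%). The 714 windows were shallower, with 96.5 calls against 447 in the median window. Mice of 1 group also differed more there, with a median SD of 5.01 points in Saline and 5.05 in Herb. Over all windows these were 2.38 and 2.54. The lower shares without overlap therefore do not measure how close Herb stood to Saline.

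By the likelihood ratio test on pooled calls, with an adjusted p under 0.01 over all windows and at least 10 points, Herb was called higher than Saline in 34 windows (4.76%, against 5.09% of all) and lower in 18 (2.52%, against 3.13% of all). Both shares were near those of all windows. This test treats each call as independent. When the spread between mice scaled the variance (F test), 0 windows were called, with 46 at an unadjusted p under 0.05 (6.44%, against 21.3% of all). By limma 0 passed an adjusted p of 0.01, as did 1 of all windows, with 89 at an unadjusted p under 0.05 (12.5%, against 25.2% of all). At an adjusted p of 0.05, with no minimum difference, 7 were higher (0.98%, against 3.58%) and 5 lower (0.7%, against 2.2%). The lower shares by the F test and limma carry the same limit of depth and spread.

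Among the windows called higher in Herb than in Saline by the likelihood ratio test were Tmem204 (by 20.1 points in pooled calls, adjusted p = 8.99e-10), the Spaca1 window (17.6 points, adjusted p = 0.00063) and intron 1 of Klc1, a kinesin light chain (16.7 points, adjusted p = 7.12e-13). Among those called lower were intron 9 of Nebl, an actin-binding protein of the nebulin family (by -32.7 points, adjusted p = 4.89e-09), the Soat1 window (-24.7 points, adjusted p = 1.70e-06) and intron 3 of Kat6a, a histone acetyltransferase (-19.0 points, adjusted p = 0.000209). These examples, apart from Spaca1 and Soat1, were chosen after their values were seen. The Kat6a window, with 21 to 86 calls per mouse, is also listed by the paper among its candidate genes. The paper describes these genes as returning to control levels with DSE. The limma adjusted p was 0.0337 at Klc1, 0.0376 at Kat6a, 0.0526 at Soat1, 0.0544 at Nebl, 0.0805 at Tmem204 and 0.147 at Spaca1. At Nebl the Saline mice had only 21 to 45 calls.

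OVA against Saline and Herb against OVA were used by the rule, so their calls are only described. The likelihood ratio test called 524 of the 714 windows higher in OVA than in Saline (4.89% of all windows were) and 494 lower in Herb than in OVA (0.698% of all). Both calls together were met by 401 of the 714 and by 742 of all windows. By limma at an adjusted p under 0.05, 0 of the 714 and 0 of all windows passed for OVA against Saline, with 687 of the 714 and 82279 of all windows at an unadjusted p under 0.05, and 26 passed as lower in Herb than in OVA (0.0313% of all windows did).

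The neighbourhood of the regions is described without a test, since the central window was chosen for its difference and windows beyond it that shared bases with any of the 714 were left out. Flanking windows were also deeper, with a median of 478 calls. Around the leading window of each region, the median of OVA minus Saline was 15 points at the window itself, 8.10 and 10.5 points in the windows 500 bp to either side, which share bases with it, and 2.10 and 2.13 points 1000 bp away. For OVA minus Herb it was 13.6, then 4.50 and 7.20, then -0.0285 and 0.385. Of 445 flanking windows that shared no base with any of the 714, 193 (43.4%) had the OVA mean above both other means, against 37.1% of all windows outside the set, and 80 (18.0%) below both, against 25.3%. All OVA mice were above the other 7 in 8 of the 445 (1.80%, against 1.68%). By depth class, from the shallowest to the deepest, the share of flanks with the OVA mean above both was 39.5%, 35.7%, 49.5%, 53.4% and 37.0%, against 38.8%, 38.9%, 39.1%, 38.1% and 30.6% outside the set.

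**Figure D5:**
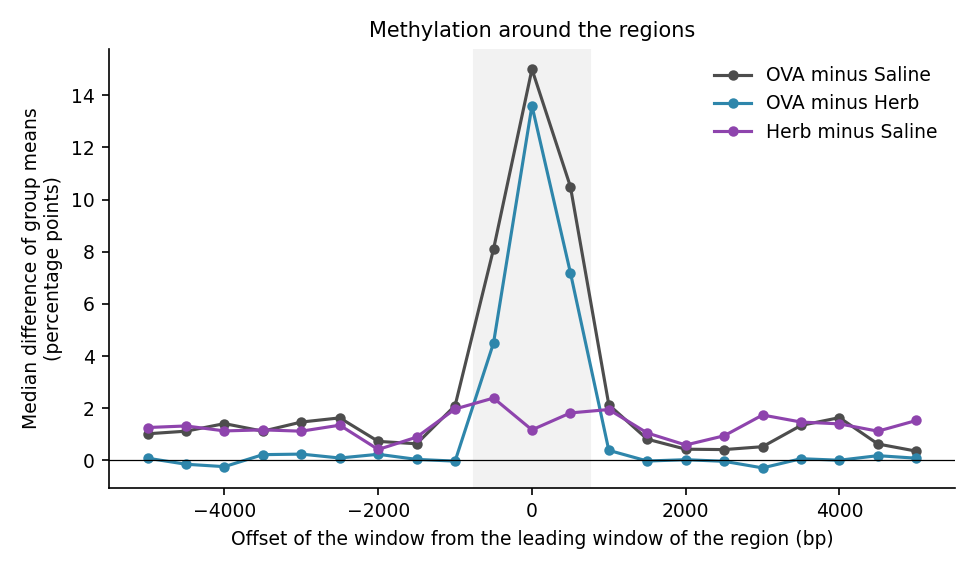
Median difference of group means (percentage points) for OVA minus Saline, OVA minus Herb and Herb minus Saline in windows at offsets of up to 5000 bp from the leading window of each of the 566 regions; shading marks windows that share bases with it, and windows sharing bases with any of the 714 were left out beyond. OVA minus Saline goes from 15 points at the centre to 2.10 and 2.13 at 1000 bp, and OVA minus Herb from 13.6 to -0.0285 and 0.385.

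Markers of the main lung cell types and of liver are given beside the pattern. Over the start sites of the 15 measured of 25 leukocyte genes, mean methylation was 57.1 to 58.9% in Saline, 50 to 54.5% in OVA and 49.9 to 52.8% in Herb. For 6 of 11 epithelial genes it was 23.9 to 27.6%, 24.7 to 26.3% and 24.6 to 29.5%, for 4 of 7 endothelial genes 16.6 to 18.5%, 18.6 to 20.7% and 17.3 to 18.9%, for all 6 smooth muscle and fibroblast genes 17.9 to 20.2%, 20.7 to 23.1% and 21.6 to 24.7%, and for 4 of 5 liver genes 62.0 to 63.8%, 63.6 to 67.1% and 63.1 to 65.9%. The list means of OVA and Herb mice overlapped in each list, but single genes did not all overlap. At Itgax, a leukocyte integrin, the OVA mice had 92.3%, 91.0% and 93.1% and the Herb mice 76.2%, 77.5%, 82.5% and 82.4%, with a Saline mean of 82.6%. Itgax was unlike most of its list: apart from Cd79a and Coro1a, the other leukocyte genes had a lower mean in OVA than in Saline. Ptprc had means of 62.8% in Saline, 46.5% in OVA and 44.0% in Herb, and Vav1 48.4%, 34.4% and 36.1%. At Foxj1 and Cdh1 the OVA mice were below the Herb mice, at 3.88 to 4.6% against 4.94 to 6.36% and at 1.89 to 2.4% against 2.45 to 3.12%. None of these start site windows was among the 714. The part of cell composition in the pattern was not tested.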

How the data were processed

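The authors captured lung DNA with SureSelect Methyl-seq, sequenced it after bisulfite conversion, trimmed with cutadapt, mapped to mm10 (GRCm38) with Bismark and summed CpG calls with methylKit. The submitters' processing notes give versions 1.10, 0.19.0 and 1.0.0, and the paper's methods give others. The deposited values were raw counts of all, methylated and unmethylated calls per window and mouse, without normalization, at 306656737 to 410836272 calls per mouse over all 446336 windows.

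Percentages were methylated calls over all calls, averaged over mice with equal weight. The members and gene lists were chosen with earlier results of these data known. Herb was compared with Saline by a likelihood ratio test of pooled calls, with Benjamini-Hochberg adjustment over 412413 windows. Alternatives were an F test with a scale factor and limma 3.58.1 on M-values (pseudocount 1). Genes came from 45657 RefSeq transcripts of GRCm38.p6. Sequences were read from that assembly. Named windows were the 10 regions with the widest gaps, the 8 promoter or exon windows with the widest gaps, regions of 3 windows or more, up to 4 windows per gene list, and 5 on either side of the limit. The fits and the rule were also run on simulated calls with known differences. Same-numbered Saline and Herb mice did not deviate together.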

Additional observations from a re-analysis of the deposited data

Results flagged for a closer look

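For 3 of the 47 values tested (the windows named or ranked by depth and the mean over the 714), 1 of the 4 Herb mice stood apart from the others by Dixon's criterion, which flags about 1 in 20 groups by chance. In the window 2324 bp from the start of Prx the Herb mice had 55.7%, 67.2%, 66.4% and 65.5%, with a gap to the nearest mouse of 0.853 of the range. In the window near Mir6380 they had 38.3%, 40.7%, 24.0% and 38.2%, with a gap of 0.850 of the range. In intron 1 of Sema5b they had 22.9%, 27.9%, 27.9% and 28.6%, with a gap of 0.876 of the range. In each the mouse that stood apart was the lowest, and it was Herb replicate 1 at Prx and Sema5b and replicate 3 at Mir6380.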

How the results depend on the processing

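The number of windows depended on the limits of the rule. It was 714 in 566 regions as reported, 944 in 737 with at least 10 calls in every mouse, 690 windows with group differences from pooled calls, 399 in 320 with at least 50 calls in every mouse, 3526 in 2721 with means at least 5 points apart, 44 in 39 with 20 points, and 353 windows where overlapping windows were left out. With at least 100 calls, chosen after seeing the data, it was 182 in 150. Leaving out 1 mouse gave 806 to 2282 windows and 635 to 1765 regions; the 3 highest counts came without an OVA mouse (2282 windows without replicate 1, 1936 without replicate 2, 1474 without replicate 3), since 2 mice are more easily above 7 than 3 are. Windows called higher in Herb than in Saline were 34, and 0 by the F test, by limma and by limma with the replicate block. There were 26 in the logistic model with the block, 7 by limma at an adjusted p under 0.05 (chosen after seeing the data) and 50 with no minimum difference. Without 1 mouse there were 16 to 44, the lowest without Saline replicate 2. Windows called lower were 18, and 0, 0 and 0 in the same 3 fits, 19 with the block in the logistic model, 5 by limma at 0.05, 28 with no minimum difference and 12 to 20 without 1 mouse. Same-numbered Saline and Herb mice had correlations of deviations of 0.0011, -0.0284 and -0.0203 over all windows, which showed no pairing by number. OVA mice were not included. The mean Herb minus Saline difference stayed at 0.825 to 1.71 points in all 10 alternatives. The promoter share was 3.64% by the window midpoint and 7.52 to 9.36% in the other 3 alternatives. The flanking share was 37.8 to 50.6% without 1 mouse, both ends without an OVA mouse. At the depth of the median window, differences of a few points between mice could not be resolved.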

Other observations

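A few other windows, chosen after their values were seen, lay in or near genes of immunity and vessels. One window overlaps coding exon 3 of Ramp2, a partner of the adrenomedullin receptor. Its OVA mice had 65.1%, 74.7% and 68.2%, its Saline mice 46.2%, 37.7% and 42.7% and its Herb mice 56.3%, 64.8%, 58.6% and 48.0%. All Herb mice were above all Saline mice there. At 9908 bp upstream of Apobec3, a cytidine deaminase that restricts retroviruses, the OVA mice had 88.6%, 70.9% and 75.9%, the Saline mice 54.2%, 52.1% and 62.7% and the Herb mice 31.3%, 37.5%, 38.8% and 49.2%. All Herb mice were below all Saline mice there, so that Herb and Saline differed in opposite directions at the 2 genes.

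On chromosome X, which the rule leaves out, 25 of 9291 windows (0.269%) met the same criteria, against 0.173% on chromosomes 1 to 19. In female mice, 1 X chromosome of each cell is inactive and differs in methylation from the active one. Each OVA mouse was the lowest of its group in a share of the 714 windows: replicate 1 in 283, replicate 2 in 253 and replicate 3 in 178. The highest of the other 7 mice was Herb replicate 2 in 149 windows and Herb replicate 4 in 142, and Saline replicate 2 in 73.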
